A study of Mus musculus with 2 samples.

Results

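Isolated SF1 regions were the stretches of mouse chromatin enriched by an antibody against SF1 in the uterus that had no other listed region within 100 kb. They were chosen by position alone: on chromosomes 1 to 19, the gap from the edge of each region to the edge of the nearest other region had to be 100 kb or more. Of the 16041 autosomal regions in the authors' list, 1757 met this limit, which is 10.95% (95% interval 10.5 to 11.4%), and the whole list, with X, held 16249. The data came from chromatin immunoprecipitation followed by sequencing (ChIP-seq), which recovers the DNA bound to a protein and counts where it maps. The tissue was whole uterus of C57BL6/6J mice aged 8 weeks, whose ovaries had been taken out at 6 weeks, leaving 2 weeks for ovarian hormones to clear. The series comprised 1 ChIP library and 1 input library from this tissue, and no replicate was named, so each value describes 1 library and the variation among animals is unknown. The labels name no genotype or transgene and do not say whether 1 uterus or a pool was used. Read totals were not used here, so the sequencing depth is unknown.

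SF1, also called NR5A1, is an orphan nuclear receptor that binds DNA as a monomer at an extended nuclear receptor half-site. In the adrenal cortex and the gonads it drives genes of steroid hormone synthesis, and in the human endometrium it is known from endometriosis, where ectopic tissue makes its own estrogen. Nuclear receptors often bind at enhancers, which may lie alone at a distance from any gene or stand in series along 1 regulatory domain. Which genes, if any, lie beside the isolated regions was not analysed here, because no annotation or sequence of mm9, the build of the list, was used.

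For comparison, the other autosomal regions were put in 2 classes by the same distance. Regions with a neighbour within 10 kb, called near-neighbour regions here, numbered 6938, and the remaining 7346 had their nearest region between 10 and 100 kb away. The distance defines these classes and is not a finding, and score took no part in the choice. Width had no limit, but gaps ran between edges, so a wider region lay closer to its neighbours. Part of a width contrast can thus follow from the rule. With distances between midpoints, 5706 regions were near-neighbour in place of 6938. Median widths were then 1713 bp in isolated and 2335 bp in near-neighbour regions. The score is a whole number that the authors gave each region. Its unit is not stated, so it was compared only within the list. Medians carry exact 95% intervals from the ranks and shares carry exact Clopper-Pearson 95% intervals. Both treat regions as independent, which neighbouring regions are not, and they cover counting error only. No p-value is given, since regions of 1 library are not replicates.

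Isolated regions were narrow. Their median width was 1707 bp (1679 to 1736), with quartiles of 1442 and 2169 bp. Near-neighbour regions had a median of 2408 bp (2370 to 2451), with quartiles of 1772 and 3558 bp. Regions at 10 to 100 kb lay between these, at 1996 bp (1976 to 2020), and none of the 3 intervals overlapped another. The order isolated, then 10 to 100 kb, then near-neighbour held for median width on 19 of 19 autosomes. The classes differed most in their wide regions. A width over 5 kb was found in 21 isolated regions, 1.20% (0.741 to 1.82%), and in 828 near-neighbour regions, 11.9% (11.2 to 12.7%). Over 10 kb, there were 110 near-neighbour regions and 0 of 1757 isolated ones, a count of 0 that allows a share of up to 0.171% (3 regions of 1757) or, as the upper end of the exact interval, 0.210%. At the other end, the narrowest decile of all autosomal regions, those up to 1392 bp, was 22.4% isolated (20.3 to 24.5%), against 10.95% of all autosomal regions. Of the widest decile, from 4365 bp up, 1.87% were isolated (1.26 to 2.66%).

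Scores differed far less than widths. The median score was 16 (16 to 17) in isolated regions, with quartiles of 13 and 21, and 17 (17 to 17) in near-neighbour regions, with quartiles of 14 and 23. The most frequent score was 14 in both classes. The mean was 18.6 ± 9.58 (SD, n = 1757 regions) in isolated regions and 20.03 ± 10.5 (SD, n = 6938 regions) in near-neighbour regions, so the difference of -1.43 was small beside the spread within either class. On single autosomes the isolated median was lower than the near-neighbour one on 12, equal on 5 and higher on 2. The upper part of the distribution was thinner: 144 isolated regions scored 30 or more, 8.20% (6.96 to 9.58%), as did 863 near-neighbour regions, 12.4% (11.7 to 13.2%). Scores under 13, in the lowest part of the list, were given to 20.1% (18.3 to 22.1%) and 16.8% (16.0 to 17.8%). For scores of 50 or more the shares were 1.71% (1.15 to 2.43%, 30 isolated regions) and 2.44% (2.09 to 2.83%). These intervals overlapped, which does not show that the shares were alike.

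**Figure D1:**
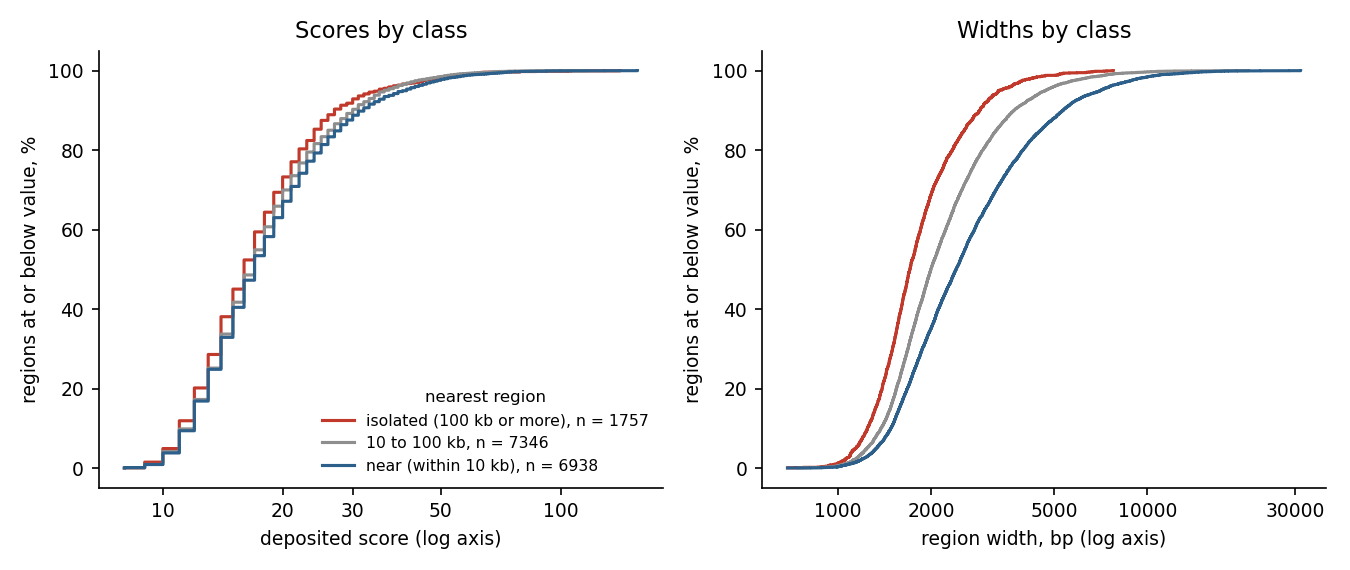
Cumulative share of regions (percent) by deposited score (left, log axis) and by width in bp (right, log axis), for isolated regions (n = 1757), regions with the nearest at 10 to 100 kb (n = 7346) and near-neighbour regions (n = 6938). The width curves are well apart, with medians of 1707, 1996 and 2408 bp, while the score curves, with medians of 16, 17 and 17, run close together.

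Regions were narrower the farther the nearest one lay, also among the isolated regions up to 1 Mb. Median widths were 1757 bp (1719 to 1797) for the 1041 members with the nearest region at 100 to 200 kb, 1668 bp (1610 to 1710) for 532 at 200 to 500 kb and 1544 bp (1489 to 1631) for 134 at 500 kb to 1 Mb. It did not hold in the last step: the 50 members at 1 Mb or more had a median of 1632 bp (1363 to 1834), an interval that overlapped those of the other steps. The trend did not begin at the 100 kb limit, since the median was 2568 bp for regions less than 1 kb from the next, 2120 bp at 10 to 25 kb and 1883 bp at 50 to 100 kb. The median score was 16 in each of the 4 steps from 100 kb up and 17 in each of the 6 below it. Scores under 13 made up 18.9% of members at 100 to 200 kb and 28.0% of those at 1 Mb or more, but the intervals of 16.6 to 21.4% and 16.2 to 42.5% overlapped.

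**Figure D2:**
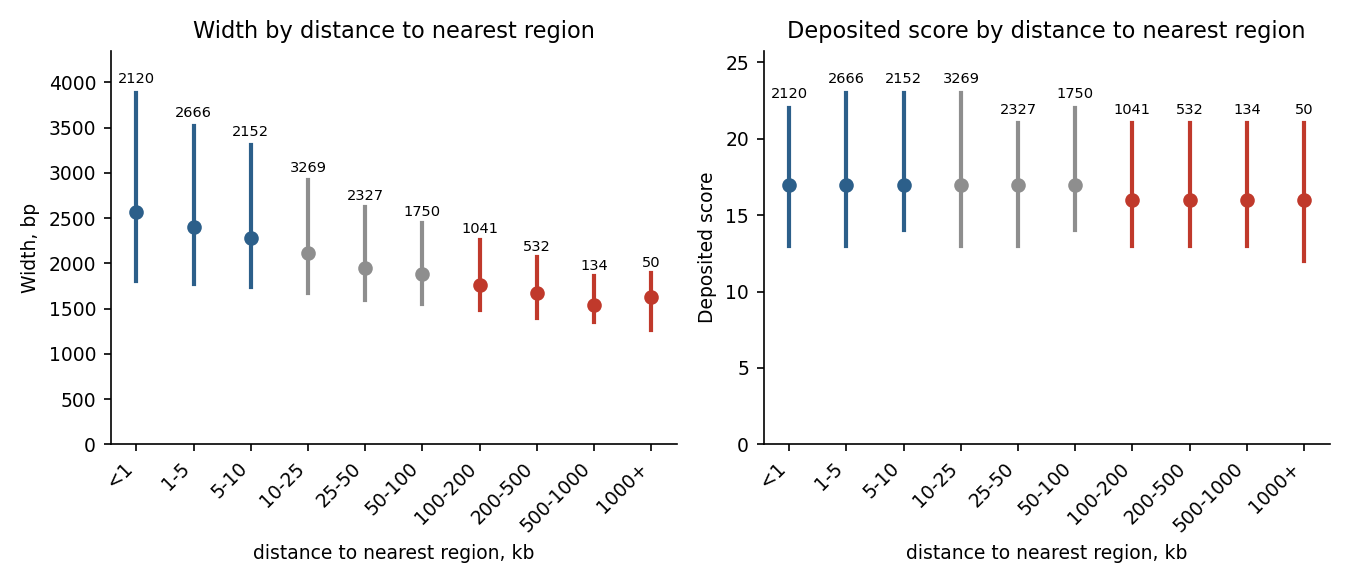
Width in bp (left) and deposited score (right) by distance to the nearest region in kb. Points are medians, lines run from the lower to the upper quartile, numbers give the regions in each step, and colours mark near-neighbour (blue), 10 to 100 kb (grey) and isolated (red) steps. Median width goes from 2568 bp under 1 kb to 1544 bp at 500 to 1000 kb, while the median score is 17 or 16 throughout.

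Wide regions had higher scores in this list, so the classes were compared again at like width, in 4 bands set by the quartiles of all autosomal regions. There the order of the scores turned: isolated regions scored higher than near-neighbour regions of similar width in the middle bands. From 1641 to 2096 bp the median was 17 (17 to 18) in 505 isolated regions and 15 (15 to 16) in 1472 near-neighbour regions. From 2097 to 2975 bp it was 19 (18 to 19) in 335 isolated and 17 (16 to 17) in 1759 near-neighbour regions. These 2 pairs of intervals did not overlap, but they met or overlapped under some alternatives given in the closing section. Regions at 10 to 100 kb lay between, with medians of 16 (16 to 17) and 18 (18 to 18), and these intervals overlapped the isolated ones. A higher score than near-neighbour regions at like width was thus not particular to isolated regions. In the narrowest band, up to 1640 bp, the isolated and near-neighbour medians were both 14. The widest band, over 2975 bp, had 22 (20 to 24) in 144 isolated and 21 (21 to 22) in 2439 near-neighbour regions, with overlapping intervals.

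High scores showed the same order in the 2 middle bands. From 1641 to 2096 bp, 8.91% of isolated regions (6.57 to 11.7%) scored 30 or more, against 5.10% of near-neighbour regions (4.03 to 6.35%). From 2097 to 2975 bp the shares were 14.6% (11.02 to 18.9%) and 10.2% (8.86 to 11.7%), whose intervals overlapped. Regions at 10 to 100 kb had shares close to the isolated ones in these bands, 8.09% (6.94 to 9.37%) and 13.9% (12.4 to 15.6%). Finer matching gave the same direction for the mean score, which was higher in isolated regions in 10 of 10 width deciles. It was higher by 0.437 in the narrowest decile and by between 0.842 and 3.08 in the 8 deciles above it. Medians were equal in the narrowest decile (13), the next (14) and the one from 3280 to 4365 bp (20). Deciles from 3280 bp up lie in the band over 2975 bp, for which no direction is given below. The widest decile differed by 9.70, but it held only 30 isolated regions, and without the 3 highest-scoring isolated regions its difference was 6.17 over 29 regions. Near-neighbour regions weighted to the widths of the isolated ones had a mean score of 16.7, which is 1.89 below the isolated mean, where the unweighted near-neighbour mean had been 1.43 above it. Without the 3 highest isolated regions the weighted difference was 1.73. Within the 4 width bands the isolated mean was higher on 17 of 19 autosomes. The exceptions were chromosome 15, at -0.22, and chromosome 18, at -0.00326. Read the other way, at equal score, isolated regions were narrower. At scores of 18 to 22 the median width was 1843 bp (1776 to 1934) for isolated and 2665 bp (2580 to 2762) for near-neighbour regions, and at 23 or more it was 2048 bp (1987 to 2160) and 3515 bp (3413 to 3655).

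**Figure D3:**
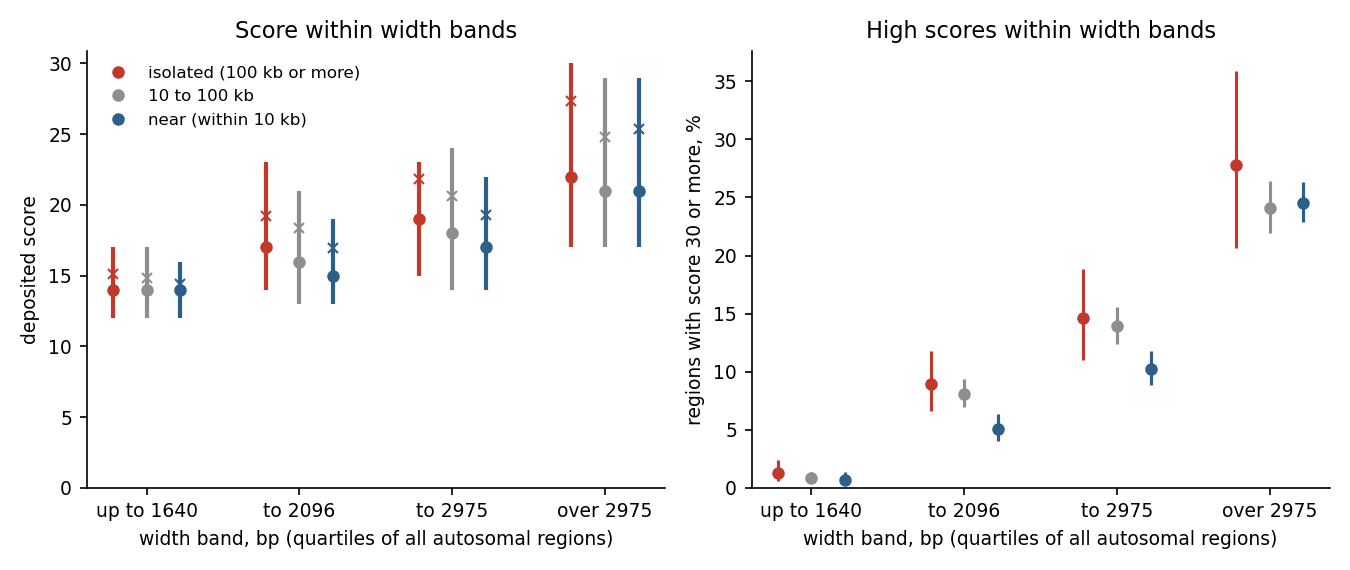
Left, deposited score in 4 width bands (bp), with medians as points, means as crosses and lines from the lower to the upper quartile. Right, percent of regions with a score of 30 or more, with exact 95% intervals; red is isolated, grey 10 to 100 kb and blue near-neighbour. In the 2 middle bands the isolated medians of 17 and 19 lie above the near-neighbour medians of 15 and 17. The grey medians of 16 and 18 lie between.

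Both score and width of near-neighbour regions depend on whether regions less than 1 kb apart are counted as 1. A merged region took the span of its parts and their highest score, which can raise a score but not lower it. With such regions merged, the isolated median was higher by 1 in each of the 2 middle bands, in place of 2, and lower by 1 in the widest band. The mean remained higher in isolated regions by 1.94 and 1.89 in the middle bands. In the widest band, over 2975 bp, the mean was higher by 0.658 after merging. With only scores of 17 or more kept and distances taken again, the median difference was 1 from 1641 to 2096 bp and 0 from 2097 to 2975 bp, and the means differed by 0.782 and 0.982. In the widest band the mean difference was -0.13 with scores of 17 or more and -0.52 when isolation meant 50 kb, so no direction is given for regions over 2975 bp. How the region caller sets width and score is not stated, and its part in the result was not tested.

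A few isolated regions ranked among the strongest of the list. They made up 3 of the 10 autosomal regions with a score of 100 or more and 30 of the 315 with 50 or more, which is 9.52% (6.52 to 13.3%), near the 10.95% of all autosomal regions. The highest lay on chromosome 17 (39979688 to 39986368), with a score of 141, second among all autosomal regions. It was 6680 bp wide, the fifth widest of the isolated regions, and stood alone by 2.57 Mb on its nearer side and 3.02 Mb on the other. The next, on chromosome 2 (73747929 to 73750550), was 2621 bp wide, scored 106 and had its nearest region 228 kb away. Chromosome 12 carried one of 2236 bp (10396801 to 10399037) that scored 104, with the nearest at 249 kb. The region at rank 4, on chromosome 17 (8474101 to 8477502), scored 87 over 3401 bp and had the nearest region at 353 kb and the other neighbour at 1.61 Mb. These 4 were 2236 to 6680 bp wide, above the upper quartile of isolated regions, 2169 bp. Whether any of them lies in repeated sequence, where reads of many copies can pile up, was not analysed here.

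The regions ranked 5 to 10 scored 79 to 63. Those at 79 lay on chromosome 1 (57028812 to 57033503, 4691 bp) and on chromosome 5 (22937850 to 22942248, 4398 bp). A region on chromosome 19 (43597737 to 43601597) scored 72, and it also bordered an empty stretch of 1.00 Mb. A region on chromosome 6 (117244627 to 117251004) scored 64 over 6377 bp. The last pair, at 63, lay on chromosome 2 (34837842 to 34839946, 2104 bp) and on chromosome 4 (62547777 to 62552462, 4685 bp), each with a neighbour within 156 kb on both sides. High scores thus occurred both at the edge of megabase gaps and at distances little over the limit.

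The most isolated region of all scored at the 90th percentile of its class, 27, and far below its highest score, 141. It lay on chromosome 14 (87814881 to 87816956), scored 27 over 2075 bp, and had gaps of 7.41 Mb and 10.5 Mb on its sides. The second, on chromosome 1 (116045614 to 116046700), scored 24 over only 1086 bp, with gaps of 4.16 and 7.35 Mb. The other three lay on chromosome 3. One of them (46251274 to 46252592) scored 15 with its nearest region at 3.85 Mb, one (14885601 to 14887629) scored 30 with the nearest at 3.64 Mb, and one (75359729 to 75361570) scored 15 with the nearest at 3.58 Mb. Scores in these 5 were thus 15 to 30, on both sides of the class median of 16.

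Most of the 5 widest isolated regions were not among the 10 highest-scoring. A region of 7769 bp on chromosome 8 (91563624 to 91571393) scored 21 and one of 7388 bp on chromosome 13 (114402825 to 114410213) scored 31. A region of 7248 bp on chromosome 1 (133418146 to 133425394) scored 19, and one of 6769 bp on chromosome 13 (63663750 to 63670519) scored 28. Only the fifth, the chromosome 17 region with a score of 141, was on both lists. The scores of 31 and 28 were also above the 90th percentile of isolated regions, 27. Across the isolated regions, which share 1 library and are not replicates, score and width had a Spearman correlation of 0.456; across near-neighbour regions it was 0.506.

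At the limit itself, the 3 regions just inside had their nearest region at 100.1 kb (chromosome 5, 74829234 to 74830810, score 11) and at 100.2 kb (a pair on chromosome 8, 111986552 to 111988556 and 112088767 to 112090670, each with a score of 19). The 3 just outside had it at 99.95 kb (chromosome 5, 37379150 to 37381243, score 13), 99.94 kb (chromosome 6, 36625840 to 36627455, score 11) and 99.85 kb (chromosome 4, 9595213 to 9597373, score 19).

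Isolation mostly meant distances well under 1 Mb. The median distance to the nearest region was 174 kb, with quartiles of 125 and 279 kb. A distance of 200 kb or more was found for 716 members (40.8%), of 500 kb or more for 184 (10.5%) and of 1 Mb or more for 50 (2.85%). The gap on the other side was larger, as it must be, with a median of 428 kb and quartiles of 237 and 978 kb among the 1739 members with a neighbour on both sides. The larger gap was 2.04 times the smaller in the median member, and 71.1 times in the most lopsided one.

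**Figure D4:**
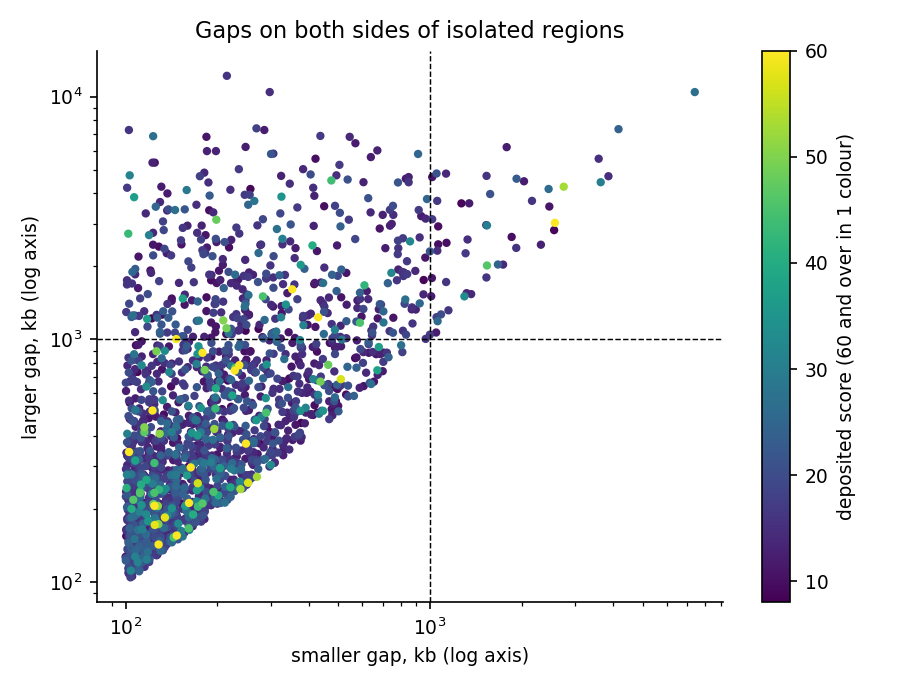
Smaller gap (kb, log axis) against larger gap (kb, log axis) for the 1739 isolated regions with a neighbour on both sides, coloured by deposited score, with dashed lines at 1 Mb. Most members lie below 1 Mb on both axes, 49 lie above it on both, and yellow points (60 and over) are found on either side of the horizontal line.

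Isolated regions formed most of the ends of long empty stretches, a placement that follows in part from the way they were chosen. Autosomes held 435 stretches of 1 Mb or more without a region, 1014 Mb together, or 42.4% of the span between the first and last regions. Of the 870 ends of these stretches, 478 were isolated regions (54.9%, 51.6 to 58.3%), 312 had their nearest region at 10 to 100 kb (35.9%) and 80 were near-neighbour regions (9.20%). Both ends were isolated in 136 stretches, 1 end in 206 and neither in 93. The share of isolated ends was 55.6% (51.1 to 60.04%) for stretches of 1 to 2 Mb, 53.1% (47.5 to 58.6%) for 2 to 5 Mb and 60.4% (45.3 to 74.2%) for 5 Mb or more. These intervals overlapped, and a change with length was not tested.

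Seen from the regions, 429 isolated ones (24.4%, 22.4 to 26.5%) bordered such a stretch, 49 of them on both sides, against 1.15% (0.915 to 1.43%) of near-neighbour regions. Members beside a stretch had the same median score as the others and a lower median width. Those with 1 Mb or more on 1 side had a median width of 1637 bp (1602 to 1700) and a median score of 16 (15 to 17). The 1328 members away from such stretches had 1732 bp (1693 to 1775) and 16 (16 to 17). Both pairs of intervals overlapped, those of width only from 1693 to 1700 bp, which does not show that the widths were alike. The 49 with 1 Mb or more on both sides had a median score of 16 (14 to 17) and a mean of 20.5 ± 19.7 (SD, n = 49 regions). That mean rested on the chromosome 17 region with a score of 141, without which it was 18.0, close to the 18.6 of members away from long stretches.

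The ends of the longest stretches were not all isolated. The longest, 12.2 Mb on chromosome 15, began after a region with a score of 9 (13101694 to 13102752) whose nearest region was 93.0 kb away and ended at an isolated region with a score of 16 (25293971 to 25295159). The second, 12.1 Mb on chromosome 14, had no isolated end: its borders (106339943 to 106341388, score 25, and 118437877 to 118439205, score 14) had neighbours at 40.9 and 48.8 kb. The third and the fifth, of 10.5 and 7.41 Mb on chromosome 14, met at the most isolated region of the list. Their outer ends, 98267482 to 98268342 (score 15) and 80406775 to 80408162 (score 18), were isolated too. The fourth, 7.65 Mb on chromosome 7, ran from a near-neighbour region (39055834 to 39057309, score 13) to a region with its nearest at 92.9 kb (46703932 to 46705627, score 12). An empty stretch means only that no region was listed there, and how much of it can take up aligned reads was not analysed here.

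Isolated regions often stood next to each other, which the rule favours, since the region across a gap of 100 kb or more already meets the limit on that side. The nearest region of a member was itself isolated in 871 of 1757 cases (49.6%, where 10.95% of all autosomal regions were isolated), had its own nearest at 10 to 100 kb in 647 (36.8%) and was a near-neighbour region in 239 (13.6%). Members made up 886 uninterrupted runs, of which 458 held 1 region, 227 held 3 or more and 58 held 5 or more. The longest run had 11 members over 6.51 Mb of chromosome 5 (46248096 to 52755778), with scores from 11 to 37 and a median of 18. The next had 10 members over 3.52 Mb of chromosome 1 (128890421 to 132413027), with scores from 11 to 32 and a median of 17. These runs thus covered the usual range of isolated scores and none of the highest.

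Surroundings were sparse for most members but not for all. The rule sets part of this, since it empties 100 kb on both sides of a member and gives each near-neighbour region at least 1 other. The median isolated region had 4 other regions within 500 kb on either side, with quartiles of 2 and 8, against 18 for near-neighbour regions, with quartiles of 12 and 26. No other region within 500 kb was found for 185 members, while 329 (18.7%) had 10 or more. The most crowded member, named after its values were seen, lay on chromosome 17 (35516198 to 35517528) with 34 others within 500 kb, a score of 11 and its nearest region at 105 kb.

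Width also varied with the surroundings. Isolated regions had a median width of 1552 bp (1489 to 1655) with 0 others within 500 kb, 1639 bp (1597 to 1708) with 1 to 2, 1770 bp (1698 to 1846) with 5 to 7 and 1818 bp (1721 to 1902) with 8 to 12. Near-neighbour regions in equally sparse surroundings were far narrower than their class as a whole: 69 with 1 to 2 others had a median of 1668 bp (1546 to 1953), an interval that contained the isolated value there. With 3 to 4 others the medians were 1979 bp (1768 to 2075) for 218 near-neighbour and 1680 bp (1609 to 1743) for 330 isolated regions, and with 13 to 20 others they were 2360 bp (2306 to 2422) and 1750 bp (1655 to 1910). Near-neighbour regions had medians of 1935 bp (1872 to 2040) with 5 to 7 others and 2125 bp (2072 to 2215) with 8 to 12. With 21 to 60 others the medians were 2778 bp (2712 to 2832) for near-neighbour and 2084 bp (1689 to 2245) for 32 isolated regions. The classes thus differed in width, beyond these intervals, at each level from 3 to 4 others up. With 1 to 2 others the intervals of isolated and near-neighbour regions overlapped, which does not show that the widths were alike. The 210 regions at 10 to 100 kb with 1 to 2 others had a median of 1790 bp (1734 to 1857), above the isolated interval. The median score of isolated regions was 16 or 17 at each of these levels.

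Every autosome held isolated regions, and their density varied less than that of all regions. The rule sets part of this, since a fixed limit of 100 kb leaves a smaller share of regions alone where regions are denser. All regions ran from 4.67 per Mb on chromosome 3 to 11.4 per Mb on chromosome 11, a range of 2.44-fold. Isolated regions ran from 0.597 per Mb on chromosome 7 to 0.926 per Mb on chromosome 13, a range of 1.55-fold, around 0.735 per Mb over all autosomes. Chromosome 11, the densest, thus had an ordinary 0.725 isolated regions per Mb. As a share of a chromosome's regions, isolated ones made up 6.36% on chromosome 11 (5.12 to 7.80%) and 7.48% on chromosome 7 (6.05 to 9.12%), and 17.3% on chromosome 13 (14.4 to 20.5%), 16.3% on chromosome 16 (13.1 to 19.8%) and 14.9% on chromosome 3 (12.4 to 17.8%). The intervals of the first 2 did not overlap those of the last 3, a contrast that the rule itself favours where density differs. Median width in isolated regions was between 1605 bp on chromosome 18 and 1869 bp on chromosome 9 on 18 autosomes and reached 2037 bp on chromosome 19, which had the fewest members, 44.

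**Figure D5:**
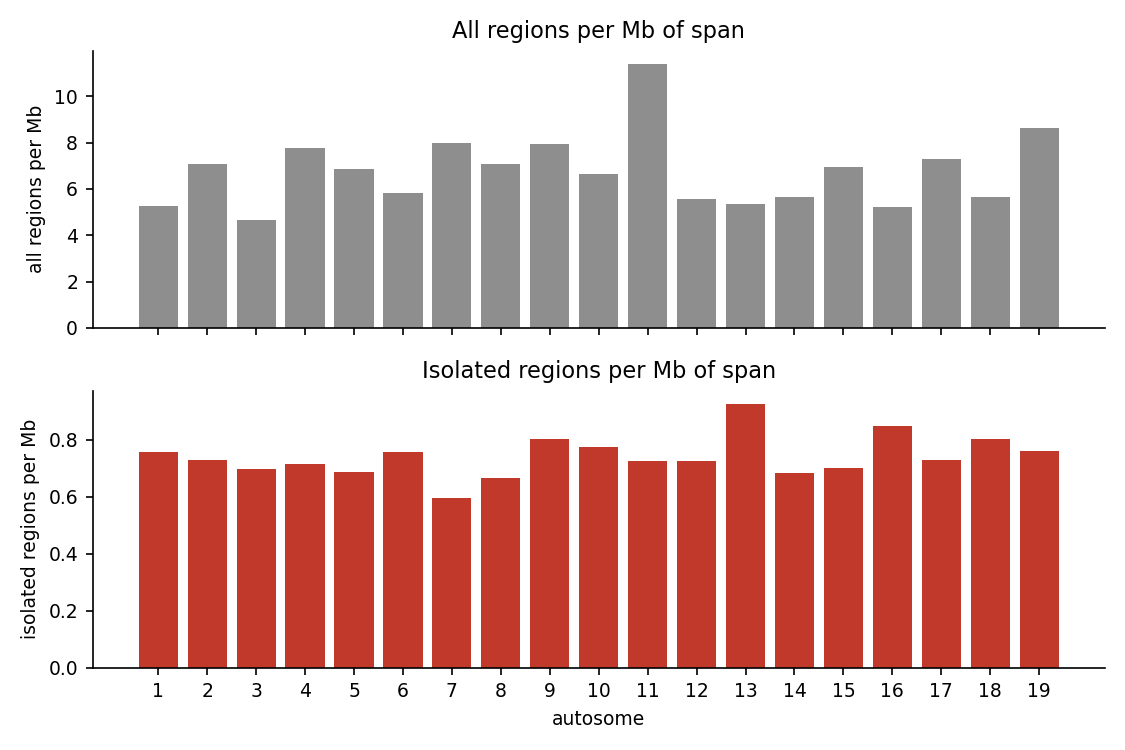
All regions (top) and isolated regions (bottom) per Mb of span, from the first to the last region, on each autosome; both bar axes start at 0. Chromosome 11 is highest above, at 11.4 per Mb, and lies in the middle below, at 0.725 per Mb.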

How the data were processed

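ChIP-seq regions of 1 SF1 ChIP library from mouse uterus were analysed; an input library belongs to the series and its reads were not used here. Single-end reads of 50 nt, per the labels, were aligned to mm9 with BWA, per the submitters' processing notes. The BWA version, how regions were called and thresholded, and whether the input was used for this are not given in the sources used. The authors deposited 1 list without header, whose columns hold the position, a numbered name and a whole number that was taken as the authors' score. Coordinates are printed as deposited, uncertain by 1 bp at the start. Gaps were taken between edges, per chromosome, over all regions of chromosomes 1 to 19, of which 0 overlapped. The first and last region of a chromosome had 1 gap. Members and comparisons were chosen with earlier results of these data known, and the counts of regions within 500 kb, the isolated groups and the width deciles after scores and widths had been seen. Regions named in the text are the 10 highest, 5 most isolated and 5 widest members, 3 on either side of the limit, and the ends of the 5 longest empty stretches; the most crowded member and the ends of 2 long runs were added after their values were seen. The code was checked on simulated regions with known answers. Python 3.11.15, numpy 2.4.6, pandas 2.3.3, scipy 1.17.1 and matplotlib 3.10.9 were used. The alternatives are listed in the closing section.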

Additional observations from a re-analysis of the deposited data

How the results depend on the processing

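Of 185 values under 13 alternatives, 134 stayed within the interval of the reported value or, for means, within 1.5 times of it. Some of these could not change. Near-neighbour scores and widths stay fixed when only the isolation distance moves. Mean differences up to 2096 bp stay fixed without the 3 highest isolated regions, which are wider. Of the alternatives, 12 were planned and 1, leaving out the 3 highest isolated regions, was chosen after seeing the data. With isolation at 50 kb, 21.9% of regions were isolated, with a median width of 1785 bp; 15.9% bordered a stretch and 69.5% of stretch ends were isolated. At 200 kb these values were 4.46%, 1632 bp, 42.6% and 40.7%. With regions under 1 kb apart merged, 12.2% were isolated, and near-neighbour regions had a median score of 18, 13.7% at 30 or more, 15.2% under 13 and a median width of 2513 bp. Keeping scores of 13 or more gave 13.5% isolated, median scores of 18 and 19 for isolated and near-neighbour regions, 10.5% and 14.8% at 30 or more, 0% under 13 in both by construction, widths of 1813 and 2625 bp, and 27.4% of isolated regions at a stretch. Keeping 17 or more gave 22.6%, scores of 21 and 22, 18.5% and 23.3% at 30 or more, 0% under 13, widths of 2016 and 3146 bp, 32.7% at a stretch and 66.7% of stretch ends. Distances between midpoints gave near-neighbour regions a width of 2335 bp and 11.1% at 30 or more. Their width was 2474 bp with neighbours within 5 kb and 2304 bp within 25 kb. Stretches of 0.5 Mb or more bordered 44.5% of isolated regions, and those of 2 Mb or more 10.7%. The median width of isolated regions was below that of near-neighbour regions under every alternative that gave both. Of the score differences at like width, the one over 2975 bp turned: its median was -1 after merging and -1 for scores of 17 or more, and its mean -0.52 at 50 kb and -0.13 for scores of 17 or more. From 2097 to 2975 bp the median difference was 0 for scores of 17 or more. In some alternatives the ends of the median intervals allowed a difference of 0. From 1641 to 2096 bp these were scores of 13 or more (0 to 3) and 17 or more (0 to 2). From 2097 to 2975 bp they were merging (0 to 2), isolation at 200 kb (0 to 5) and neighbours within 25 kb (0 to 2). Scores of 13 or more (0 to 3) and 17 or more (-2 to 2) also did so there. The mean difference at 1641 to 2096 bp and at 2097 to 2975 bp stayed above 0, from 0.782 to 3.07 and from 0.982 to 3.61. The cause of these shifts was not tested. No paired analysis was possible because there is 1 ChIP library, without replicate, so none could be left out either. Depth is unknown, so which weaker neighbours a deeper library would add beside isolated regions cannot be said.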

Other observations

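Small groups of regions also stood alone. Chains of 2 or more regions with gaps of up to 10 kb, and 100 kb or more to anything else, numbered 206, of which 175 were pairs, and held 461 regions. Their median width was 1851 bp (1749 to 1942), between the 1707 bp of isolated regions and the 2408 bp of all near-neighbour regions, and their median score was 16 (15 to 17). At widths up to 1640 bp their median score was 13 (13 to 13), against 14 (14 to 14) in isolated regions. From 1641 to 2096 bp it was 16 (15 to 17) in 105 regions, against 17 (17 to 18) in isolated ones, and these intervals overlapped. From 2097 to 2975 bp it was 18 (16 to 19) in 98 regions, against 19 (18 to 19). Over 2975 bp the order was the other way, with 24 (22 to 28) in 77 regions against 22 (20 to 24), and the intervals overlapped in both of these bands.

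On X, which the rule leaves out, 75 of 208 regions had no other within 100 kb, 36.1% (29.5 to 43.0%), against 10.95% on the autosomes. A fixed distance favours a higher share where regions are sparser, and the density of regions on X was not calculated here. The median score of these 75 regions was 15 (13 to 16), with a range of 10 to 58, and their median width 1517 bp (1435 to 1658). The 49 near-neighbour regions on X had a median score of 15 (13 to 17) and a median width of 1574 bp (1482 to 1956). The intervals of width overlapped between the classes there, which does not show that the widths were alike.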
